A study of Mus musculus with 15 samples.

Results

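The genes described here are the collagens, laminins and associated basement membrane proteins in endothelial cells of mouse heart, brain and liver. A gene was included when a single symbol in the array annotation was a collagen alpha chain, a laminin alpha, beta or gamma chain, or 1 of Nid1, Nid2, Hspg2, Agrn, Sparc, Sparcl1 and Fn1, and its probe set with the highest mean was used. The rule found 61 of the 19938 genes measured. Of these, 26 are interstitial collagens, some of which fibroblasts make in quantity, and they are treated apart from the other 35.

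The study compared microvascular endothelia of different organs. All mice were Tie2-GFP animals on the FVB background, aged 8 to 12 weeks and males and females in equal number, with no other treatment. Cells were freshly digested from tissue, sorted on GFP and measured on 15 arrays: 5 of heart (RNA pooled from 4 mice each), 5 of brain (6 mice each) and 5 of liver (2 mice each). Heart was digested with collagenase I at 37 °C, brain with crude collagenase, DNase and a short trypsin step at 37 °C, and liver with dispase at room temperature followed by a Percoll gradient. Tissue therefore cannot be told apart from enzyme or pool size, nor liver from digestion temperature. The Tie2 promoter that drives GFP is also active in some blood-derived cells, so the gate is not endothelial alone. Large vessels visible by eye had been removed.

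A basement membrane is the thin matrix sheet on which endothelial cells sit. It is built of a laminin polymer and a collagen IV network, which nidogens and heparan sulphate proteoglycans join together. Each laminin is a trimer of an alpha, a beta and a gamma chain, and endothelial cells are known for laminins with the alpha 4 or alpha 5 chain. Capillaries of heart and brain have a continuous basement membrane, which in brain is shared with pericytes and astrocyte endfeet, whereas liver sinusoids are fenestrated and lack a continuous one. Interstitial collagens, by contrast, form the fibrils and filaments of connective tissue.

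Values are RMA-normalized log2 intensities, so a difference of 1 is a 2-fold difference. They compare one probe set between tissues, not one gene with another. The 15 arrays had medians between 5.98 and 6.11. For any gene, whether a mean within or below that range reflects expression was not tested. A set of 12 endothelial markers averaged 10.56 ± 0.06 in heart, 10.58 ± 0.12 in brain and 10.49 ± 0.10 in liver (SD, n = 5 arrays each, as for all values below). RNA of other cells was also present. Cardiomyocyte markers (15 of 16 higher in heart than in both others) had array means of 7.62 to 9.06 in heart, 5.83 to 6.02 in brain and 5.57 to 5.82 in liver. Hepatocyte markers (14 of 15 higher in liver) ranged over 5.04 to 5.17 in heart, 5.46 to 5.60 in brain and 6.93 to 7.81 in liver. Macrophage and Kupffer cell markers (11 of 14 higher in liver) ranged over 5.23 to 5.60, 5.21 to 5.44 and 5.64 to 8.32 in the same tissues. A lower value for any gene in sorted bulk cells may mean fewer cells that make it or less RNA in each, which cannot be told apart.

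Differences were tested with limma over all genes, with Benjamini-Hochberg adjustment within each contrast and a threshold of 0.05, and the adjusted p-values below come from that fit unless another test is named. Of the 61 genes, 12 were higher and 7 lower in heart than in brain, where 7.11% and 8.29% of all genes were called (15.4% in either direction). Against liver, 21 were higher and 1 lower in heart (11.5% and 16.3% of all genes, 27.8% in either direction), and 14 were higher and 5 lower in brain (11.1% and 14% of all genes, 25.1% in either direction). In at least 1 of the 3 contrasts 29 of the 61 were called, against 37.8% of all genes. The median difference over the 61 genes was 0.12 for heart minus brain, 0.17 for heart minus liver and 0.08 for brain minus liver, beside 0.03, 0.03 and -0.002 over all genes. In all, 24 of the 61 were higher or lower in 1 tissue than in both others, against 25.5% of all genes. These 24 comprised 21 of the 35 genes outside the interstitial collagens and 3 of the 26 interstitial collagens.

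By tissue, heart was higher than both others for 9 genes (3.73% of all genes) and lower for 0 (3.27%). At an unadjusted p under 0.05 limma also found 0 lower in heart. In brain 7 were higher and 4 lower (4.7% and 2.82%). In liver 1 was higher and 10 lower (10.4% and 5.64%). A difference of at least 1 from both other tissues was reached by 9 genes (6.96% of all genes): Lamb1 and Lama2 were higher in heart (0.908% of all genes), Fn1 and Agrn higher in brain (1.56%), Lama4 and Nid1 lower in brain (0.652%), and Fn1, Sparcl1, Lama3 and Col8a1 lower in liver (1.46%). None of the 61 was lower in heart or higher in liver by that much, where 0.311% and 2.69% of all genes were. Of the 61 genes, 32 (18 of them interstitial collagens) passed in none of the 3 contrasts, where 37.8% of all genes passed in at least 1. The largest difference among those 32 was 0.31.

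**Figure D1:**
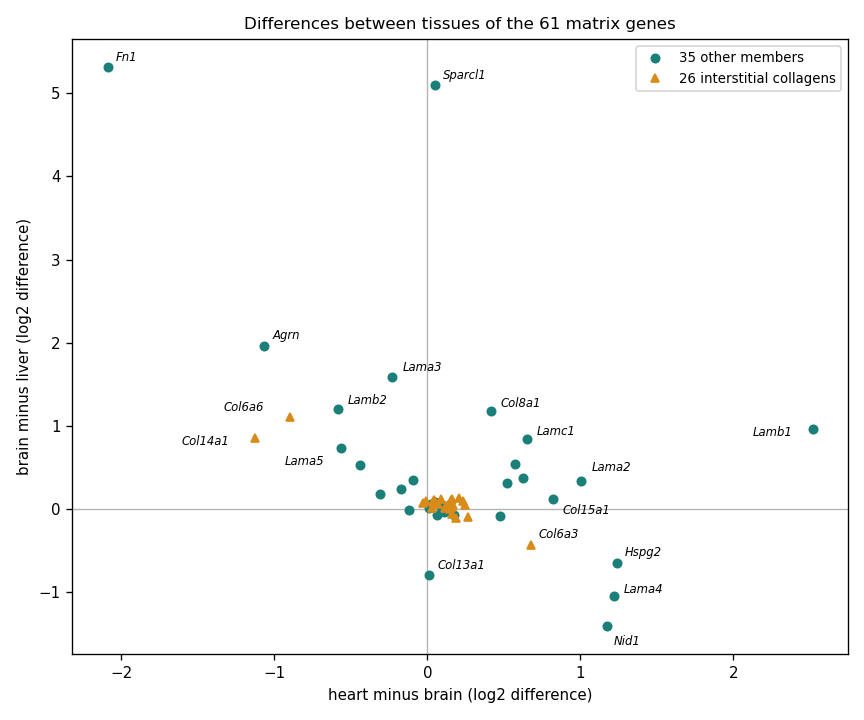
Log2 difference of heart minus brain (horizontal axis) against brain minus liver (vertical axis) for each of the 61 genes; circles are the 35 genes outside the interstitial collagens and triangles the 26 interstitial collagens. Most triangles lie close to 0 on both axes, while Lamb1, Fn1, Sparcl1 and Agrn lie farthest out.

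Collagen IV, the sheet-forming collagen, was higher in heart than in the other tissues for both of its common chains. Col4a1 (probe set 10576973) and Col4a2 (probe set 10570068) encode the alpha 1 and alpha 2 chains, which assemble together. Their genes lie head to head on mouse chromosome 8 with RefSeq starts 21 bases apart, at 11312826 for Col4a1 and 11312805 for Col4a2. With these starts the transcripts overlap at their 5′ ends. The 250 bases before each start therefore lie downstream of the partner's start, and the bases between the starts are in neither window. The windows are printed 5′ to 3′ because the pair shares this start region and moved in the same order. Capitals mark the CCAAT box, the GC box GGGCGG or the TATA box TATAAA on either strand, motifs that do not overlap one another here, and the coordinates are those of GRCm38.p6.
Col4a1, chr8:11312827-11313076, minus strand: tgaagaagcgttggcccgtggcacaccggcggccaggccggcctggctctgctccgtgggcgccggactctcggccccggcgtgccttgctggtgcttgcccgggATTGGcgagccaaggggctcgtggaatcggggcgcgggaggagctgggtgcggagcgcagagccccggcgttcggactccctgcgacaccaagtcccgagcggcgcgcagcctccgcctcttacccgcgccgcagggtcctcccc
Col4a2, chr8:11312555-11312804, plus strand: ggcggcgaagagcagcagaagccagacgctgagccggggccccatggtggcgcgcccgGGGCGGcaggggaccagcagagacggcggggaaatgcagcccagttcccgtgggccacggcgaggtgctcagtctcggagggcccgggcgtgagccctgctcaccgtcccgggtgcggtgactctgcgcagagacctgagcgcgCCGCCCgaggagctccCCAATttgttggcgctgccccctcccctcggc
The Col4a1 window holds 1 CCAAT match, on the opposite strand, and the Col4a2 window holds 1 CCAAT and 2 GGGCGG matches. Among all 32851 RefSeq windows of this length, 33.8% hold CCAAT, 32.7% hold GGGCGG and 12.4% hold TATAAA.

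Col4a1 had log2 values of 8.51, 8.69, 8.59, 8.61 and 8.56 in heart, 8.13, 8.05, 8.05, 7.98 and 7.89 in brain and 7.49, 7.65, 7.55, 7.29 and 7.39 in liver. No 2 tissues overlapped. Heart minus brain was 0.57 (SE 0.08, adjusted p = 2.964e-05), heart minus liver 1.12 and brain minus liver 0.55 (adjusted p = 2.66e-05), so the order heart, brain, liver held at each step. Col4a2 had 8.07, 8.15, 7.84, 7.78 and 7.88 in heart, 7.51, 7.49, 7.45, 7.51 and 7.17 in brain and 7.38, 7.34, 7.07, 6.90 and 6.89 in liver. Heart lay above every other array, by 0.52 over brain (adjusted p = 0.00322) and 0.83 over liver, while brain and liver overlapped (0.31, adjusted p = 0.054). That last difference passed without brain replicate 5 (adjusted p = 0.02238), without liver replicate 1 (0.02192) and without liver replicate 2 (0.02657). Col4a3, Col4a4, Col4a5 and Col4a6, chains of the networks known from kidney and other specialised membranes, had tissue means between 5.53 and 6.20 and passed in no contrast.

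Of the laminin beta chains, Lamb1 was highest in heart and Lamb2 in brain, and both were lowest in liver. Lamb1 (probe set 10395163) encodes the beta 1 chain, part of the laminins of most endothelia, and Lamb2 (probe set 10588942) the beta 2 chain, known from the neuromuscular synapse, kidney and vessel walls. The 250 bases upstream of each start are shown because these chains can replace each other in a trimer and had different tissue orders.
Lamb1, chr12:31265043-31265292, plus strand: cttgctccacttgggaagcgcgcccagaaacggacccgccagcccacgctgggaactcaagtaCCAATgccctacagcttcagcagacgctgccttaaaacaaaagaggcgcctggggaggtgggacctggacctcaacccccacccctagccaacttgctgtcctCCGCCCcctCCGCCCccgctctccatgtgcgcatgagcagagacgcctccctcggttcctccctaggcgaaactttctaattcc
Lamb2, chr9:108479612-108479861, plus strand: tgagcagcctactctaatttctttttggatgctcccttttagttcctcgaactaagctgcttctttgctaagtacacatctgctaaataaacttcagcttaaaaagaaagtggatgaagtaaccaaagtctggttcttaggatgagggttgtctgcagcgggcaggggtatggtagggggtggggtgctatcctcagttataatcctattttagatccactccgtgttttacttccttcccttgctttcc
With the same capitals, the Lamb1 window holds 1 CCAAT match and 2 GGGCGG matches, both on the opposite strand. The Lamb2 window holds none of the 3 motifs, and says nothing of sequence outside it.

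Lamb1 had values of 9.37, 9.78, 9.08, 9.53 and 9.74 in heart, 7.40, 6.59, 7.07, 6.98 and 6.87 in brain and 6.21, 6.16, 5.73, 5.90 and 6.12 in liver. All heart arrays lay far above the rest, and no brain array reached down to the liver range. The liver mean of Lamb1, 6.02, lies within the range of array medians, 5.98 to 6.11. Lamb1 was 5.73-fold higher in heart than in brain (log2 2.52, SE 0.15, adjusted p = 1.088e-09) and 11.1-fold higher than in liver (log2 3.48), and brain exceeded liver by 0.96 (adjusted p = 9.088e-05). Lamb2 had 8.32, 8.15, 8.24, 8.03 and 8.21 in heart, 8.99, 8.98, 8.64, 8.64 and 8.63 in brain and 7.68, 7.56, 7.53, 7.68 and 7.40 in liver. Here brain was highest and liver lowest, without overlap. Heart minus brain was -0.59 (adjusted p = 0.0002085), heart minus liver 0.62 and brain minus liver 1.21. Lamb3, the beta chain of epithelial laminin, had means of 5.80, 5.63 and 5.71 in heart, brain and liver and passed in no contrast.

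Since both chains are read on the same array, their within-array difference was compared between tissues by an exact permutation test, two-sided, with 5 arrays against 5, whose smallest possible p is 0.007937. Adjustment was over 15 such tests of 5 gene pairs. Lamb1 minus Lamb2 was 1.31 ± 0.35 in heart, -1.79 ± 0.34 in brain and -1.55 ± 0.23 in liver. The shift between the chains was 3.10 for heart minus brain and 2.86 for heart minus liver (adjusted p = 0.01488 for both), with every heart array above every other array. Lamb1 was higher and Lamb2 lower in heart than in brain, each without overlap. The exact p for heart minus brain could therefore only be its smallest, and that test adds nothing to the differences of the single genes. Brain minus liver was -0.25 (adjusted p = 0.2747). Such a shift shows that the chains changed unequally, not which is the more abundant.

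Among the alpha chains, Lama4 was lower in brain and Lama5 higher there. Lama4 (probe set 10362538) encodes the alpha 4 chain, made broadly by endothelium. Its values were 10.08, 10.37, 10.11, 10.22 and 9.89 in heart, 9.23, 9.06, 8.86, 8.79 and 8.63 in brain and 10.08, 9.89, 9.99, 10.05 and 9.77 in liver. Heart and liver overlapped (difference 0.18, 95% interval -0.06 to 0.41, adjusted p = 0.2776), and brain was lower than both: heart minus brain was 1.22 (adjusted p = 3.029e-07) and brain minus liver -1.04 (adjusted p = 1.052e-06). Lama5, the alpha 5 chain that joins endothelial membranes as vessels mature, had 6.83, 6.77, 6.95, 6.80 and 6.95 in heart, 7.61, 7.76, 7.32, 7.37 and 7.07 in brain and 6.95, 6.54, 6.61, 6.73 and 6.63 in liver. Every brain array was above every heart and liver array. Heart minus brain was -0.57 (adjusted p = 0.001801), brain minus liver 0.73 and heart minus liver 0.17 (95% interval -0.08 to 0.41). Lama4 minus Lama5 within arrays was 3.27 ± 0.25 in heart, 1.49 ± 0.13 in brain and 3.26 ± 0.12 in liver. The shift was 1.79 for heart minus brain and -1.78 for brain minus liver (exact permutation test, adjusted p = 0.01488 for both), and 0.01 for heart minus liver (adjusted p = 0.9524). Between brain and each other tissue the chains differed in opposite directions without overlap. The exact p of the tests with brain could therefore only be its smallest.

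**Figure D2:**
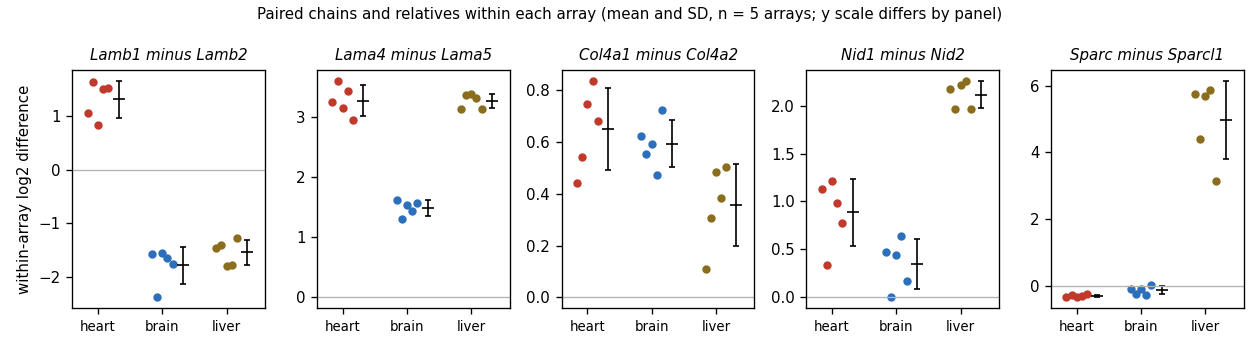
Within-array log2 difference of 5 gene pairs in heart, brain and liver; each point is an array, bars give the mean and SD of 5 arrays, and the vertical scale differs by panel. Lamb1 minus Lamb2 stands apart in heart, Lama4 minus Lama5 in brain, and Nid1 minus Nid2 and Sparc minus Sparcl1 in liver.

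Lama3 encodes the alpha 3 chain, known from epithelial laminin. It had 7.72, 7.62, 7.71, 7.47 and 7.76 in heart, 7.82, 8.53, 8.05, 7.58 and 7.45 in brain and 6.52, 6.27, 6.43, 6.07 and 6.20 in liver. Liver was lowest without overlap, 1.36 below heart (2.56-fold, adjusted p = 3.152e-06) and 1.59 below brain, while heart minus brain was -0.23 (95% interval -0.56 to 0.10). Lama1, the alpha 1 chain of embryonic membranes, had means of 5.63 ± 0.09 in heart, 6.07 ± 0.13 in brain and 5.54 ± 0.11 in liver. It was highest in brain (heart minus brain -0.44, adjusted p = 0.0007358, and brain minus liver 0.53, adjusted p = 5.631e-05). These means lie below or within the range of array medians, 5.98 to 6.11, and whether such values reflect expression was not tested.

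Lama2, the alpha 2 chain of muscle membranes and of pericytes and astrocytes in brain, was higher in heart and uneven there. Its values were 7.27, 6.00, 6.37, 6.11 and 5.48 in heart, 5.88, 4.92, 5.17, 5.26 and 4.97 in brain and 4.69, 5.06, 4.94, 4.90 and 4.94 in liver. The brain and liver means of Lama2, 5.24 and 4.91, lie below the range of array medians. Heart minus brain was 1.01 (SE 0.25, adjusted p = 0.007895), although heart replicate 5 lay below brain replicate 1, and heart minus liver was 1.34 (adjusted p = 0.0004338). The 14 pericyte and smooth muscle markers (3 higher in heart than in both others) averaged 7.92, 7.27, 7.66, 7.18 and 6.63 on the same heart arrays and 7.82, 6.37, 6.75, 6.91 and 6.15 in brain, and 5.98 to 6.10 in liver. Fibroblast markers (7 of 15 higher in heart) averaged 7.09, 6.38, 6.64, 6.43 and 6.02 in heart, against 5.34 to 5.79 in brain and 5.35 to 5.70 in liver. Heart replicate 1 was thus highest and replicate 5 lowest for Lama2 and for both marker sets, and brain replicate 1 was highest in brain for all of them. Cardiomyocyte markers, at 9.06, 8.19, 8.71, 7.62 and 7.63, were also highest in heart replicate 1. Without heart replicates 1 and 3 the heart minus brain difference was 0.62 (adjusted p = 0.04153). Of the 35 genes outside the interstitial collagens, brain replicate 1 was highest in brain for 14 and lowest for 5. Lamb1, Lamc1, Nid1 and Col4a1 are among those 14. Heart replicate 1 was highest in heart for 6, Nid1 among them, and lowest for 9. Endothelial markers were also highest in brain on replicate 1. The part of pericytes, smooth muscle cells, fibroblasts and cardiomyocytes in the differences of Lama2 and these other genes was not tested.

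**Figure D3:**
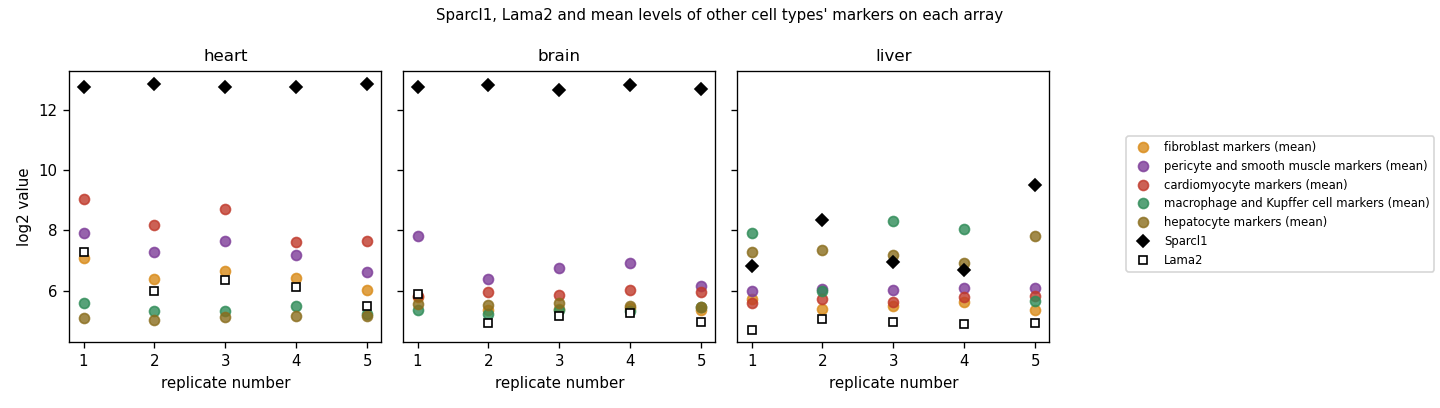
Log2 values of Sparcl1 (diamonds) and Lama2 (open squares) and mean log2 values of 5 sets of markers of other cells (circles), by replicate number, for heart, brain and liver. In heart, Lama2, fibroblast and pericyte markers are highest on replicate 1; in liver, Sparcl1 is highest on replicates 2 and 5, where macrophage markers are lowest.

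Lamc1, the gamma 1 chain shared by nearly all endothelial laminins, followed the order of Col4a1. It had 9.77, 9.92, 9.61, 9.61 and 9.65 in heart, 9.39, 8.82, 9.06, 9.16 and 8.86 in brain and 8.45, 8.44, 8.15, 7.93 and 8.09 in liver. The tissues did not overlap. Heart minus brain was 0.65 (adjusted p = 0.0008477), heart minus liver 1.50 and brain minus liver 0.85 (adjusted p = 2.96e-05). Lamc3, another gamma chain, had means of 6.28, 6.59 and 6.41 and passed in no contrast.

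The nidogens, which link laminin to collagen IV, parted in liver. Nid1 (probe set 10403584) had 9.05, 8.78, 8.97, 8.96 and 8.73 in heart, 8.19, 7.44, 7.85, 7.81 and 7.34 in brain and 9.42, 9.26, 9.21, 8.92 and 8.87 in liver. Brain was lower than all heart and liver arrays: heart minus brain was 1.17 (2.26-fold, adjusted p = 1.143e-05) and brain minus liver -1.41, whereas heart and liver overlapped (-0.24, 95% interval -0.54 to 0.07). Nid2 had 7.92, 8.45, 7.76, 7.98 and 7.95 in heart, 7.71, 7.45, 7.41, 7.17 and 7.17 in brain and 7.24, 7.29, 6.98, 6.65 and 6.91 in liver. It was higher in heart, by 0.63 over brain (adjusted p = 0.004984) and 1.00 over liver, and brain and liver overlapped (0.37, adjusted p = 0.07235). That last difference passed without heart replicate 2 (adjusted p = 0.0419) and without liver replicate 2 (0.03962). Nid1 minus Nid2 within arrays was 0.89 ± 0.35 in heart, 0.34 ± 0.26 in brain and 2.12 ± 0.14 in liver. Heart minus liver was -1.24 and brain minus liver -1.78 (exact permutation test, adjusted p = 0.01488 for both).

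The heparan sulphate proteoglycans differed in tissue order: heart was highest for Hspg2 and brain for Agrn. Hspg2 (probe set 10509280), perlecan, had 8.87, 9.19, 8.97, 8.98 and 8.97 in heart, 7.98, 7.81, 7.79, 7.66 and 7.56 in brain and 8.50, 8.78, 8.35, 8.12 and 8.29 in liver. Heart was highest and brain lowest, with no overlap. Heart minus brain was 1.24 (adjusted p = 2.332e-07), heart minus liver 0.59 (adjusted p = 0.0006003) and brain minus liver -0.65. Agrn (probe set 10519270), agrin, known from the neuromuscular synapse and from brain microvessels, had 7.48, 7.40, 7.46, 7.48 and 7.38 in heart, 8.82, 8.36, 8.68, 8.34 and 8.35 in brain and 6.64, 6.91, 6.52, 6.16 and 6.50 in liver. Brain was highest and liver lowest without overlap: heart minus brain was -1.07 (adjusted p = 4.594e-06), heart minus liver 0.90 and brain minus liver 1.96 (3.90-fold). Astrocytes also make agrin. The 11 astrocyte markers averaged 5.73 ± 0.04 in heart, 5.75 ± 0.15 in brain and 5.63 ± 0.06 in liver. In brain 1 of them (Slc4a4) was higher and 1 (Aldh1l1) lower than in both others, and Aqp4 was 0.42 higher in brain than in liver (adjusted p = 0.004828). By brain array the astrocyte markers averaged 6.01, 5.75, 5.67, 5.71 and 5.64, highest on replicate 1, where Agrn was also highest. The part of astrocyte RNA in the Agrn difference was not tested.

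**Figure D4:**
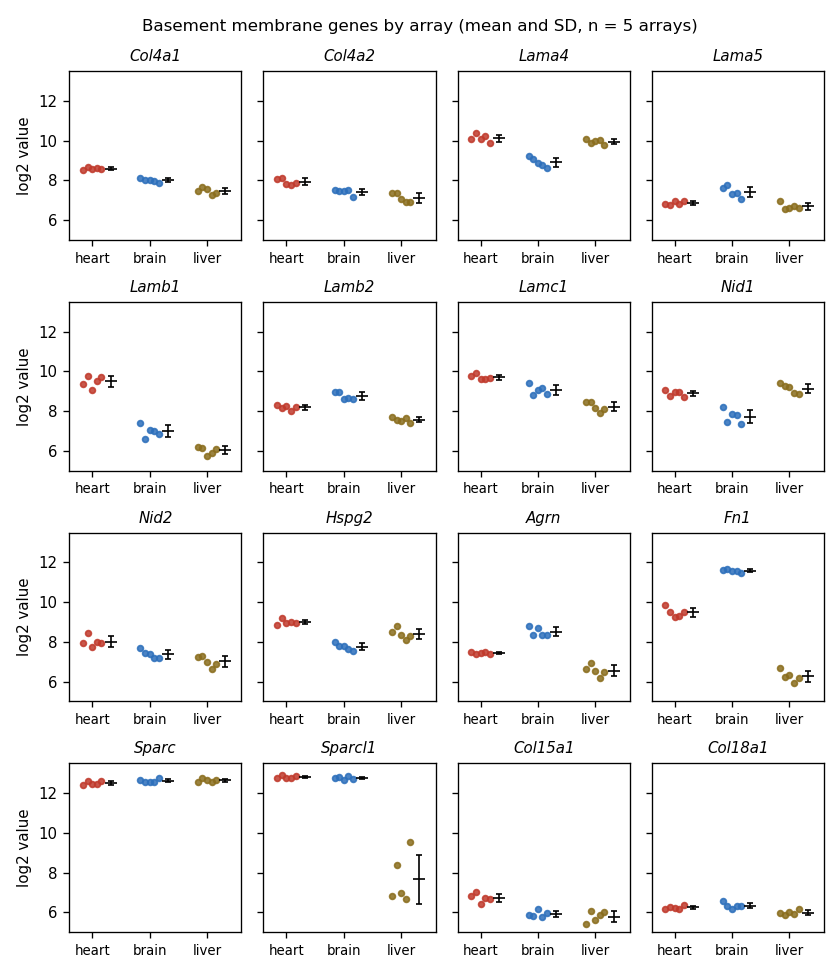
Log2 values of 16 basement membrane genes on each heart, brain and liver array (points), with the mean and SD of 5 arrays beside them, on 1 shared scale. Lamb1 is highest in heart, Fn1 and Agrn in brain, and Sparcl1 is low and uneven in liver while Sparc is near 12.6 in every tissue.

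Fn1, fibronectin, and Sparcl1 had the largest tissue differences of the 61 genes. Fn1 (probe set 10355403) binds integrins, collagens and fibrin. It had 9.86, 9.51, 9.25, 9.32 and 9.50 in heart, 11.63, 11.68, 11.58, 11.54 and 11.47 in brain and 6.70, 6.21, 6.31, 5.95 and 6.16 in liver. The 3 tissues stood well apart. Heart was 4.26-fold below brain (heart minus brain -2.09, SE 0.13, adjusted p = 1.236e-09) and 9.33-fold above liver (log2 3.22, adjusted p = 1.974e-12), and brain minus liver was 5.31. Hepatocytes secrete plasma fibronectin, and hepatocyte markers were highest in liver, as given above. The part of hepatocyte RNA in the liver values of Fn1 was not tested.

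Sparcl1 (probe set 10531931), also called hevin, and its relative Sparc are secreted proteins that bind collagen. Sparcl1 had 12.77, 12.89, 12.77, 12.77 and 12.86 in heart, 12.77, 12.82, 12.67, 12.84 and 12.71 in brain and 6.81, 8.36, 6.96, 6.68 and 9.52 in liver. Heart and brain overlapped almost fully, and every liver array was lower. Brain minus liver was 5.10 (34.2-fold, SE 0.39, adjusted p = 1.043e-08) and heart minus liver 5.15, with a range of 4.90 to 5.61 when single arrays were left out. Within liver, replicates 2 and 5 were high for Sparcl1 and low for the 14 macrophage and Kupffer cell markers, which averaged 7.90, 5.98, 8.32, 8.04 and 5.64. The hepatocyte markers were highest on the same replicates, at 7.29, 7.36, 7.17, 6.93 and 7.81. The fibroblast and stellate cell marker Dcn was also lowest on those arrays, at 9.21, 6.94, 8.04, 8.77 and 5.50, and the part of other cells in the spread of Sparcl1 was not tested. Sparc had 12.42, 12.61, 12.44, 12.46 and 12.60 in heart, 12.68, 12.57, 12.56, 12.56 and 12.74 in brain and 12.57, 12.77, 12.64, 12.54 and 12.66 in liver. It passed in no contrast, with 95% intervals of -0.27 to 0.03 for heart minus brain, -0.28 to 0.02 for heart minus liver and -0.17 to 0.14 for brain minus liver. Values this high lie near the top of the scale, which ended at 13.1 for tissue means, and whether these probe sets were saturated was not tested. Sparc minus Sparcl1 within arrays was -0.31 ± 0.04 in heart, -0.14 ± 0.13 in brain and 4.97 ± 1.18 in liver, a shift of -5.28 for heart minus liver and -5.11 for brain minus liver (exact permutation test, adjusted p = 0.01488 for both).

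The smaller within-array shifts were less firm. Nid1 minus Nid2 differed by 0.54 between heart and brain (exact permutation test, adjusted p = 0.0496), Sparc minus Sparcl1 by -0.17 between heart and brain (0.03571), and Col4a1 minus Col4a2 by 0.29 between heart and liver (0.04329) and 0.24 between brain and liver (0.03571). Of the 15 fits that left out 1 array, 11 ended the first call, 5 the second, 7 the third and 4 the fourth. Liver replicates 1, 2 and 4 are not part of the first test, and without any of them its shift stayed at 0.54. There the call ended only through the adjustment over 15 tests (exact permutation test, adjusted p = 0.05411). The highest adjusted p was 0.09921 for the first, 0.08658 for the second, 0.08333 for the third and 0.06494 for the fourth. Col4a1 minus Col4a2 for heart minus brain was 0.06 (adjusted p = 0.5272).

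Of the multiplexins, collagens of vascular and epithelial basement membranes, Col15a1 was higher in heart. It had 6.81, 7.01, 6.44, 6.74 and 6.64 in heart, 5.85, 5.81, 6.16, 5.75 and 5.97 in brain and 5.42, 6.05, 5.59, 5.88 and 5.99 in liver. Heart lay above both without overlap, by 0.82 over brain (adjusted p = 0.0001665) and 0.94 over liver. The brain and liver means of Col15a1, 5.91 and 5.79, lie below the range of array medians, 5.98 to 6.11. Col18a1, the source of endostatin, had 6.17, 6.29, 6.20, 6.17 and 6.38 in heart, 6.56, 6.30, 6.18, 6.33 and 6.29 in brain and 5.96, 5.85, 6.02, 5.90 and 6.16 in liver. It was 0.35 higher in brain than in liver (adjusted p = 0.00361) and 0.26 higher in heart than in liver (adjusted p = 0.025). The heart difference lost its call without heart replicates 2 or 5 or liver replicates 2 or 4 (adjusted p up to 0.06802). Centring arrays on the endothelial markers or on the median gene ended it too (0.20, adjusted p = 0.1893, and 0.21, adjusted p = 0.06668), and the first of these also ended the brain difference (0.27, adjusted p = 0.06751).

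Of the 10 other collagens outside connective tissue fibrils, 3 passed against both other tissues, where 25.5% of all genes did. Col8a1, a short-chain collagen of vessel walls, had 7.96, 7.89, 7.57, 7.56 and 7.95 in heart, 7.66, 7.46, 7.55, 7.11 and 7.10 in brain and 5.76, 5.90, 6.15, 6.43 and 6.72 in liver. Liver lay below the rest: heart minus liver was 1.60 and brain minus liver 1.18 (adjusted p = 2.544e-05), while heart minus brain was 0.41 (95% interval 0.06 to 0.77, adjusted p = 0.1151). Col13a1, a membrane-spanning collagen, was the 1 gene of the 61 higher in liver than in both others. Its means were 6.68 ± 0.17 in heart, 6.66 ± 0.16 in brain and 7.46 ± 0.04 in liver (heart minus liver -0.79, adjusted p = 2.961e-06). Col10a1, known from growth plate cartilage, was 0.39 higher in heart than in liver (adjusted p = 0.01312) and 0.47 higher than in brain. Its means were 6.47 in heart, 6.00 in brain and 6.08 in liver, the latter 2 within the range of array medians. The liver difference was lost with arrays centred on the endothelial markers (0.33, adjusted p = 0.1086). Col7a1, Col8a2, Col17a1, Col23a1, Col25a1, Col26a1 and Col28a1 passed in no contrast.

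Of the 26 interstitial collagens, 18 passed in no contrast and 8 in at least 1, where 37.8% of all genes passed in at least 1. Among the 15 fibroblast markers heart exceeded both others for 7 and liver for 1 (3.73% and 10.4% of all genes). The fibroblast markers Dcn and Dpt, chosen after their values were seen, are among those 7. Dcn, a small proteoglycan of fibroblasts, had 10.61, 9.38, 9.65, 9.34 and 8.71 in heart, 7.97, 5.28, 6.04, 6.16 and 5.35 in brain and 9.21, 6.94, 8.04, 8.77 and 5.50 in liver. Dpt, another fibroblast matrix gene, had 9.49, 7.49, 8.95, 7.61 and 5.53 in heart, against means of 4.48 in brain and 4.48 in liver. Col1a1, the main chain of type I collagen fibrils, had 6.96, 6.97, 6.83, 6.81 and 6.87 in heart, 6.76, 6.70, 6.66, 6.79 and 6.76 in brain and 6.34, 6.63, 6.64, 6.76 and 6.76 in liver. The heart arrays thus ran from 5.53 to 9.49 for Dpt and from 6.81 to 6.97 for Col1a1. Col1a2, its partner chain, had means of 6.73 ± 0.12 in heart, 6.53 ± 0.04 in brain and 6.40 ± 0.17 in liver, and Col3a1, type III collagen, 6.24 ± 0.10, 6.08 ± 0.08 and 5.96 ± 0.16. Whether these probe sets respond to their RNA was not tested.

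**Figure D5:**
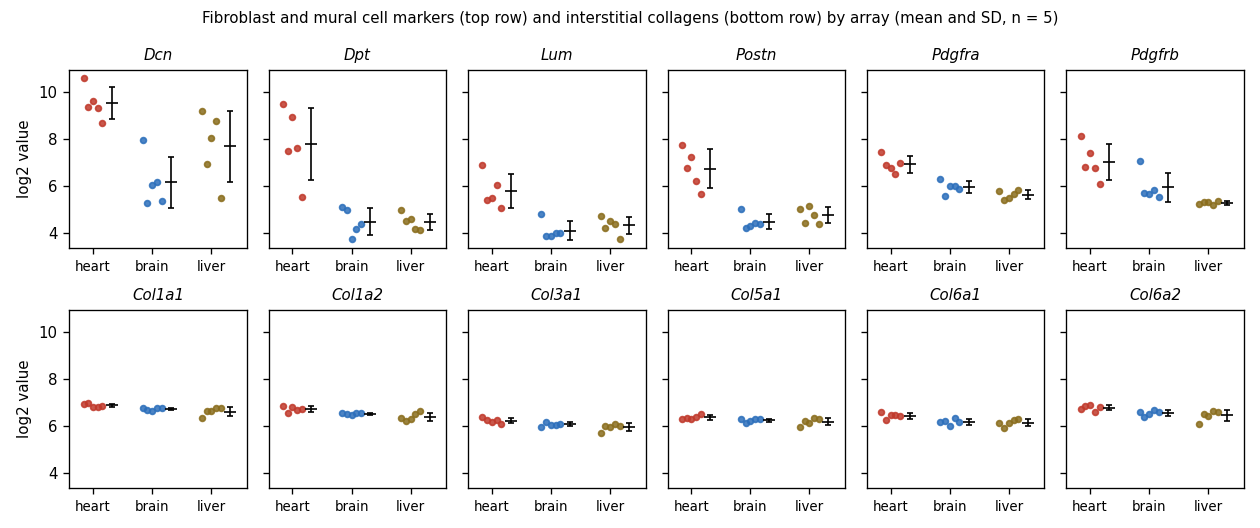
Log2 values of fibroblast and mural cell markers (top row: Dcn, Dpt, Lum, Postn, Pdgfra, Pdgfrb) and of interstitial collagens (bottom row) on each array of heart, brain and liver, with the mean and SD of 5 arrays. The collagens shown are Col1a1, Col1a2, Col3a1, Col5a1, Col6a1 and Col6a2. On heart arrays Dcn runs over 8.71 to 10.61 and Dpt over 5.53 to 9.49, while the collagens shown stay between 5.69 and 6.97 on all arrays. Of those not shown, Col6a3 runs over 6.26 to 7.25 and Col5a2 over 5.49 to 5.79 on heart arrays, and Col6a6 reaches 8.30 in brain.

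Over the 26 interstitial collagens, tissue means lay between 4.98 and 7.06 in heart, 4.92 and 7.68 in brain and 4.88 and 6.87 in liver. The median difference was 0.14 for heart minus brain, 0.16 for heart minus liver and 0.06 for brain minus liver. Col1a1, Col1a2, Col3a1, Col6a1 and Col6a2 were higher in heart than in liver by 0.26 to 0.33, 5 of 26 where 11.5% of all genes were called, and 0 were lower, also at an unadjusted p under 0.05 with limma. All 5 calls ended with arrays centred on the endothelial markers (adjusted p from 0.1212 to 0.2715) and without heart replicates 1 and 3 (0.07396 to 0.1227). Col1a1 lost its call without heart replicates 1 or 2 or liver replicate 1, Col3a1 without heart replicate 1, Col6a1 without heart replicate 1 or liver replicate 2, and Col6a2 without heart replicate 3 or liver replicate 1 (adjusted p of at most 0.0556). Col5a1 and Col5a2, of type V fibrils, passed in no contrast, at 6.38, 6.24 and 6.19 for Col5a1 and 5.66, 5.40 and 5.50 for Col5a2 in heart, brain and liver.

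Of the 26 interstitial collagens, 3 passed against both other tissues, where 25.5% of all genes did, and those 3 differed in brain. Col14a1, a fibril-associated collagen, had 6.44, 6.21, 6.16, 5.67 and 6.13 in heart, 7.59, 7.23, 7.50, 6.79 and 7.14 in brain and 6.64, 6.33, 6.40, 6.52 and 6.11 in liver. Brain was above every other array (heart minus brain -1.13, adjusted p = 3.707e-05; brain minus liver 0.85, adjusted p = 0.0003805). Col6a6, a chain of the collagen VI filaments, was likewise higher in brain, at 7.68 ± 0.39 against 6.78 ± 0.28 in heart and 6.58 ± 0.34 in liver (brain minus liver 1.10, adjusted p = 0.0002249). Col6a3, the large collagen VI chain, had 7.25, 6.26, 6.62, 6.26 and 6.64 in heart, 6.05, 5.80, 5.86, 6.04 and 5.89 in brain and 6.57, 6.42, 6.14, 6.23 and 6.43 in liver. It was 0.67 higher in heart than in brain (adjusted p = 0.003927), with heart replicate 1 the highest as for the fibroblast markers. Brain minus liver was -0.43 (adjusted p = 0.04488), a call lost in 11 of the 15 fits that left out 1 array (adjusted p up to 0.1121).

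Of 31 measured genes of collagen and laminin processing, 2 were higher and 2 lower in heart than in both others, 2 higher and 3 lower in brain, and 6 higher and 5 lower in liver (over all genes 3.73% and 3.27%, 4.7% and 2.82%, and 10.4% and 5.64%). Plod2, which hydroxylates lysines for cross-links, had means of 8.43 ± 0.24 in heart, 8.09 ± 0.28 in brain and 4.50 ± 0.08 in liver, so that brain was 12.1-fold above liver (adjusted p = 2.856e-13). Pxdn, peroxidasin, forms the sulfilimine bonds of collagen IV. It was at 9.02 ± 0.18 in heart, 5.59 ± 0.16 in brain and 9.36 ± 0.19 in liver, 10.8-fold higher in heart than in brain (adjusted p = 1.746e-13). The smaller heart minus liver difference of Pxdn, -0.34 (adjusted p = 0.02849), was lost when any of 7 single arrays was left out (adjusted p up to 0.07468). Loxl3, a lysyl oxidase, was higher in liver (5.93 ± 0.24, 5.90 ± 0.18 and 7.34 ± 0.13 in heart, brain and liver), and Crtap, a partner of prolyl 3-hydroxylase, lower in heart (7.73 ± 0.27, 9.11 ± 0.16 and 9.01 ± 0.18).

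Of 23 receptors for laminin and collagen, 5 were higher and 0 lower in heart than in both others (limma, 0 lower also at an unadjusted p under 0.05), 1 higher and 2 lower in brain, and 2 higher and 5 lower in liver, beside the same shares of all genes (3.73% and 3.27%, 4.7% and 2.82%, 10.4% and 5.64%). Itga6, the alpha 6 integrin that binds laminin, had means of 10.56 ± 0.20 in heart, 10.23 ± 0.09 in brain and 8.61 ± 0.22 in liver, with heart minus liver 1.95 and brain minus liver 1.62 (adjusted p = 2.039e-09). Its heart minus brain difference of 0.33 (adjusted p = 0.04964) was lost in 11 of the 15 fits that left out 1 array. Bcam, a receptor for the alpha 5 laminin chain, was 8.49 ± 0.18, 8.60 ± 0.13 and 7.27 ± 0.25 in heart, brain and liver, again lowest in liver. Itga3, another laminin-binding integrin, was highest in brain, at 5.97 ± 0.20, 6.94 ± 0.16 and 5.49 ± 0.26. The syndecan Sdc2 had means of 5.86 ± 0.69 in heart, 5.77 ± 0.74 in brain and 4.77 ± 0.18 in liver, lowest in liver. It was highest on heart replicate 1 (6.77) and brain replicate 1 (7.01), the arrays where the pericyte markers were also highest. The brain minus liver call of Sdc2 was lost without brain replicates 1 or 4 or liver replicates 3, 4 or 5 (adjusted p up to 0.07091), and its heart minus liver call without heart replicates 1 and 3 (0.65, adjusted p = 0.1636).

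Of 42 other genes of basement membrane and vessel matrix, 5 were higher and 2 lower in heart than in both others, 9 higher and 1 lower in brain, and 4 higher and 9 lower in liver, where all genes gave 3.73% and 3.27%, 4.7% and 2.82%, and 10.4% and 5.64%. Spock2, a testican proteoglycan related to Sparc, had means of 6.37 ± 0.17 in heart, 11.09 ± 0.39 in brain and 5.98 ± 0.19 in liver, 26.4-fold below brain in heart (adjusted p = 1.995e-13). Vwa1, which binds perlecan, followed the order of Agrn, at 6.98 ± 0.13, 9.02 ± 0.36 and 5.51 ± 0.39. Mgp, an inhibitor of calcification, was 10.54 ± 0.41, 11.49 ± 0.36 and 7.79 ± 0.74, and Fbln5, which organises elastic fibres, 8.03 ± 0.32, 8.64 ± 0.66 and 6.03 ± 0.38, both lowest in liver. Mgp in heart was -0.95 from brain (adjusted p = 0.03254), a difference lost when any of 6 single arrays was left out (adjusted p up to 0.08289). These 3 lists were not chosen independently of earlier results.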

How the data were processed

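RNA of sorted endothelial cells (5 ng per sample, amplified and biotin-labelled) was hybridised to Affymetrix arrays, and the authors deposited 1 log2 value per probe set and array, made with RMA in Affymetrix Power Tools per the submitters' processing notes. The sources used here do not give its version. RMA gives the arrays a common distribution, so an overall shift between tissues would not be seen. Arrays carry no read depth; their number limits the precision. Of 35556 probe sets, 21789 had 1 gene symbol in the platform annotation, 1621 had several and 12146 were unnamed here; the rest of the work used the highest-mean probe set of each of 19938 genes. Of the 61 genes, 2 had a second probe set. All 61 symbols are in RefSeq (GRCm38.p6), and 44 have an entry in the RefSeq promoter table that supplied the printed sequences.

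A mean per tissue was estimated in 1 limma 3.58.1 fit (R 4.3.3, lmFit, then eBayes) that had been tested on simulated data. Nothing in the labels says whether pools shared animals or days, so the p-values measure only the spread between these pools. Named genes are those that differ by at least 1 from both other tissues, usual endothelial basement membrane genes, 8 interstitial collagens, and the 4 largest differences in each related list; Lama1, Col10a1, Col13a1, Col14a1, Col6a6 and chains named as not passing were added after their values were seen. Dcn, Dpt, Lum, Postn, Pdgfra, Pdgfrb, Slc4a4, Aldh1l1 and Aqp4 were picked from the marker lists in the same way. The genes and lists were chosen with earlier results of these data known. Hepatic stellate markers averaged 5.88 ± 0.06 in heart, 5.90 ± 0.04 in brain and 6.63 ± 0.13 in liver (2 of 8 higher in liver), and mesothelial, endocardial and lymphatic markers 6.23 ± 0.13, 5.76 ± 0.07 and 6.31 ± 0.20. The alternatives were centring on the endothelial markers or the median gene, eBayes with trend and robust settings, each pair of tissues alone, a mean filter of 6, averaged probe sets, a replicate block, a minimum difference of 1, and arrays left out.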

Additional observations from a re-analysis of the deposited data

Results flagged for a closer look

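Of 96 gene and tissue groups of 5 arrays tested for an array far from the rest, 4 were flagged, where chance flags about 1 in 20. Each has 1 array lying below the others by more than Dixon's 95% limit. The values were 7.17 for Col4a2 on brain replicate 5, 6.46 for Col1a2 on brain replicate 3, 5.69 for Col3a1 on liver replicate 1 and 7.40 for Col13a1 on liver replicate 1.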

How the results depend on the processing

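Requiring a log2 difference of at least 1 left 5 higher and 3 lower for heart minus brain, 8 and 0 for heart minus liver, and 7 and 2 for brain minus liver. Against both other tissues it left 2 higher in heart, 2 higher and 2 lower in brain, and 0 higher and 4 lower in liver. Under every other alternative run, the counts of the 61 genes stayed within 1.5 times. Centring on the endothelial markers moved the share of higher calls over all genes to 29.6% of calls for heart minus liver and 32% for brain minus liver, against 41.3% and 44.1% as deposited; for the 61 genes it left 14 higher and 1 lower for heart minus liver, and 13 and 5 for brain minus liver.

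With the replicate number as a block, the within-array shifts kept their values (heart minus brain, heart minus liver and brain minus liver, where called): 3.10 and 2.86 for Lamb1 over Lamb2, 1.79 and -1.78 for Lama4 over Lama5, 0.29 and 0.24 for Col4a1 over Col4a2, 0.54, -1.24 and -1.78 for Nid1 over Nid2, and -0.17, -5.28 and -5.11 for Sparc over Sparcl1. All 12 had an adjusted p of 0.07812, because 5 pairs cannot give a smaller p than 0.0625 in a sign-flip test. After the tissue mean of each gene was subtracted, the deviations of same-numbered arrays of different tissues correlated at r = -0.0005 to 0.20 (15 pairs). Among the 5 arrays of another tissue, these deviations correlated best with their own number in 20 of 30 combinations. Different-numbered arrays of different tissues gave r = -0.17 to 0.13 for the same deviations. Not every same-numbered pair was above 0.1 and no label gives a shared source, so the numbers were not taken as pairs. What same-numbered arrays share was not tested, and the p-values without the block leave it out. In the limma fit the block changed 2 calls of single genes, for brain minus liver in Col4a2 (adjusted p = 0.01352) and Nid2 (0.02368).

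Leaving out single arrays gave 0.46 to 0.68 for Nid1 over Nid2 (heart minus brain), -0.20 to -0.12 for Sparc over Sparcl1 (heart minus brain), 0.23 to 0.35 and 0.18 to 0.27 for Col4a1 over Col4a2 (heart minus liver, brain minus liver) and -0.0720 to 0.0928 for Lama4 over Lama5 (heart minus liver). Of 89 called differences of 44 named genes, 74 kept their call under each of the 23 alternatives that tested them; Lama1, Lama2, Sdc2 and Col5a2 fall below the mean filter of 6 and were not tested under it. Sign changes occurred in uncalled differences: brain minus liver of Sparc (-0.0418 to 0.0203 with 1 array left out), Col5a1 (-0.00746 to 0.0873) and Col6a1 (-0.00641 to 0.0981), and heart minus brain of Col13a1 (-0.0550 to 0.0816), Loxl3 (-0.0443 to 0.120) and Sdc2 (-0.147 to 0.391). Centring on the endothelial markers gave -0.0357 for Col5a1 and -0.0357 for Col6a1, and on the median gene -0.00574 for Col13a1. Without heart replicates 1 and 3, Loxl3 was -0.0451 and Sdc2 -0.358. The causes were not tested.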

Other observations

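Within liver, replicate 1 was the lowest array for 18 of the 26 interstitial collagens and replicate 5 the highest for 17. Of the other 35 genes, replicate 1 was lowest for 17, and replicates 2 and 5 were each highest for 11. Over the interstitial collagens the mean was 5.94 on replicate 1 and 6.32 on replicate 5, with 6.09 to 6.27 on the other liver arrays. The heart arrays had means of 6.26 to 6.37 and the brain arrays 6.21 to 6.32.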
